A study of Mus musculus with 6 samples.

Results

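The 46 genes described here encode proteins of the centromere, the kinetochore and the spindle assembly checkpoint. They were chosen by name from what their products do, with earlier results of these data known. All 46 symbols matched an Ensembl identifier among the 33084 in the deposited counts, and all 46 passed the filter on low counts that left 19403 genes for testing. Bulk RNA was sequenced from microdissected mouse forebrain at embryonic day 15.5, from 3 heterozygous mutant embryos (Dyrk1a+/-) and 3 wild-type embryos (wt) of the same line, each labelled as a biological replicate. The kinase DYRK1A phosphorylates serine, threonine and, in itself, tyrosine, and acts in brain growth and cell cycle exit. The sources used here do not give the deleted part of the gene, the strain background, the sex of the embryos or the litters, and no other allele or agent is named for either genotype. The comparison sets transcript levels of this machinery under loss of 1 Dyrk1a copy against those of wt forebrain.

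The centromere is the chromosome site marked by nucleosomes that hold CENP-A, a variant of histone H3. On it the constitutive centromere-associated network is assembled, which in mitosis carries the KMN network, the part of the kinetochore that grips spindle microtubules. Checkpoint kinases and Mad and Bub proteins sit on kinetochores that lack microtubules and delay anaphase until every chromosome is attached. In embryonic forebrain, mitoses occur in progenitors of the ventricular and subventricular zones, while neurons have left the cycle. In bulk tissue, fewer cells of a type and less RNA per cell cannot be told apart.

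Libraries held 18699434 to 25012356 counts in Dyrk1a+/- embryos and 25270710 to 32865708 in wt embryos. Dyrk1a itself was at 149, 147 and 158 CPM (each library's counts scaled to a common effective size) in Dyrk1a+/- libraries and at 177, 186 and 160 CPM in wt libraries, a log2 fold change of -0.20 (SE 0.0794; edgeR, unadjusted p = 0.0306, Benjamini-Hochberg adjusted p = 0.59). Every Dyrk1a+/- library lay below every wt library, although counts over the whole gene check the genotype only weakly. A pair of libraries, Dyrk1a+/- replicate 2 and wt replicate 3, stood apart from the 4 others along the leading axis of a principal component analysis (34.9% of variance), so differences within this pair and within the 4 other libraries are given below. Forebrain identity was checked with 10 marker genes, which summed to 583 to 671 CPM in Dyrk1a+/- and 561 to 615 CPM in wt libraries, with 9 of 10 higher in Dyrk1a+/- and those of lowest p being Lhx2 (log2 fold change 0.27) and Emx2 (0.31). The 6 Hox genes of hindbrain and spinal cord that were found in the counts summed to 0.427 to 0.563 CPM in Dyrk1a+/- and 0.183 to 0.476 CPM in wt libraries.

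Of the 46 genes, 45 were higher in Dyrk1a+/- forebrain and 1, Zwint, was lower, in small steps with a median log2 fold change of 0.28, or 1.21-fold. Among all genes tested 51.2% were higher and the median was 0.0048. With edgeR's quasi-likelihood F-test and Benjamini-Hochberg adjustment over all genes, 0 of the 46 had an adjusted p under 0.05, against 0.0103% of all genes. At an unadjusted p under 0.05 were 20 of the 46, all of them higher and 0 lower. Among all genes 3.27% were higher and 4.61% lower at that level, 7.88% in all. DESeq2 called 1 gene, Hjurp, the loader of CENP-A (adjusted p = 0.00821), against 0.121% of all genes. In 18 of the 46 every Dyrk1a+/- library lay above every wt library, as in 6.53% of all genes, and in 0 every Dyrk1a+/- library lay below, as in 7.49% of all genes. The middle 50% of the log2 fold changes lay between 0.20 and 0.35. All 46 genes were measured in the same 6 libraries, so these counts are not counts of independent observations.

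The Dyrk1a+/- libraries did not contribute evenly. Dyrk1a+/- replicate 3, the shallowest library, held the highest CPM of all 6 libraries for 33 of the 46 genes, Dyrk1a+/- replicate 2 for 8 and Dyrk1a+/- replicate 1 for 3. The lowest value fell in wt replicate 1 for 17 genes, in wt replicate 3 for 16 and in wt replicate 2 for 8. The mean log2 CPM over the 46 genes, set to 0 over all libraries, was 0.069, 0.060 and 0.29 in Dyrk1a+/- libraries and -0.17, -0.091 and -0.15 in wt libraries, so the genotypes did not overlap in it. Without Dyrk1a+/- replicate 3 the median log2 fold change was 0.19 and 7 genes were at an unadjusted p under 0.05 (1.58% of all genes higher at that level). Without wt replicate 1 it was 0.27, with 11 genes (also 1.58%). With a term for the library pair 31 of the 46 were at an unadjusted p under 0.05 (7.43% of all genes higher at that level). Without Dyrk1a+/- replicate 2, 28 genes separated the genotypes (13.9% of all genes higher in that way), a count that can only stay or grow when a library is left out. The mean log2 CPM differed by 0.21 within the library pair and by 0.31 within the 4 others, and counts thinned to the smallest library total gave a median of 0.28.

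**Figure D1:**
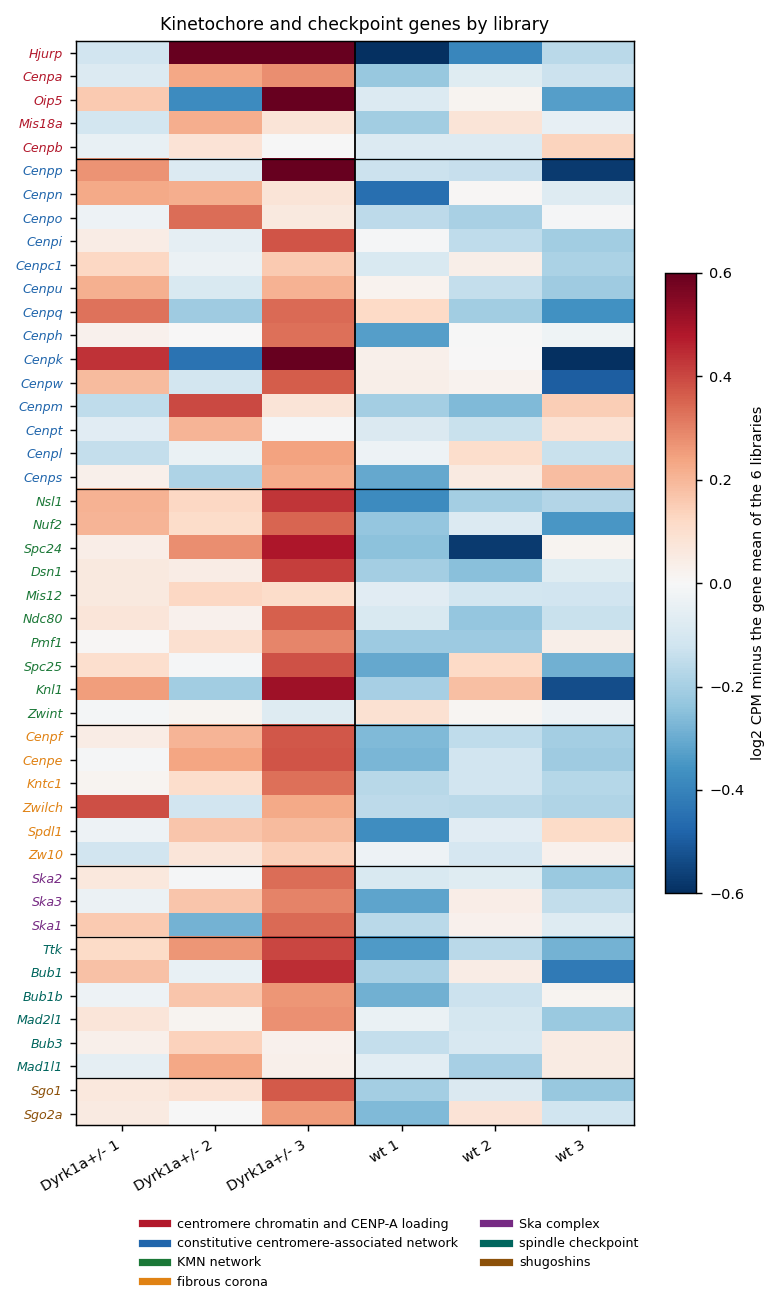
Each row is a gene, grouped and coloured by role, each column a library, and the colour gives log2 CPM minus the gene's mean over the 6 libraries, limited to 0.6 in either direction. The Dyrk1a+/- columns are mostly red and the wt columns mostly blue, with Dyrk1a+/- replicate 3 the highest library for 33 of 46 genes and rows such as Cenpb and Zwint nearly white.

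Many genes of late cell cycle are controlled through their promoters by the cell cycle genes homology region (CHR) bound by the DREAM and MuvB complexes, by CCAAT boxes bound by NF-Y, and by E2F sites. Promoter windows of 300 bases (250 before to 50 after the transcription start; RefSeq, GRCm38.p6) were found for 42 of the 46 genes, in 47 windows. The windows were searched on both strands for the CHR (TTTGAA or else TTTAAA), for CCAAT, for an E2F core (TTCCCGC or else TTGGCGC or else TTTGGCG or else TTTCCCG, which can overlap each other) and for a bipartite element (GGCGGNNNNTTTGAA or else GCGCGNNNNTTTGAA, which contains a CHR). A CHR was in 48.9% of these windows and in 27.6% of all 32851 windows of the table. CCAAT was in 68.1% against 37.4%, the E2F core in 29.8% against 9.77%, and CHR together with CCAAT in 38.3% against 10.7%. The bipartite element was in 1 of these windows, that of Cenpf, and in 19 of all windows. Of the 17 genes with a window that were at an unadjusted p under 0.05, 9 held a CHR, 12 a CCAAT and 3 an E2F core. Of the 25 others 13 held a CHR, 16 a CCAAT and 11 an E2F core. CHR together with CCAAT was in 8 of the 17 and in 9 of the 25. A match is a description of the letters and not evidence of a bound site.

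The stretch from 200 bases before the start to 30 bases after it is printed for 8 genes as examples. The first 6 were higher in Dyrk1a+/- embryos, as were 45 of the 46 genes. The last 2, Cenpb and Zwint, were the most abundant per length and among the 4 genes with a log2 fold change within 0.05 of 0. Each reads 5′ to 3′ on the strand of the gene, and capitals mark the motifs above.
Ttk, chr9:83834489-83834718, plus strand: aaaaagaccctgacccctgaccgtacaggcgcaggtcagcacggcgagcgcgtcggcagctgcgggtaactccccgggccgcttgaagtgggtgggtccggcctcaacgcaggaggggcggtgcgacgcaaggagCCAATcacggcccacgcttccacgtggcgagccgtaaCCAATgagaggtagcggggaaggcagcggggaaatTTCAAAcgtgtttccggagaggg
Cenpf, chr1:189688057-189688286, minus strand: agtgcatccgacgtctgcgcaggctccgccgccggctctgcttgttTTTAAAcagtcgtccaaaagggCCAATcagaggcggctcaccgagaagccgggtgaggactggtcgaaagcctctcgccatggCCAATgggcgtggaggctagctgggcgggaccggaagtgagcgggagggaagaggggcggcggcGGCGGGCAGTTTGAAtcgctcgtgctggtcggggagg
Cenpe, chr3:135212363-135212592, plus strand: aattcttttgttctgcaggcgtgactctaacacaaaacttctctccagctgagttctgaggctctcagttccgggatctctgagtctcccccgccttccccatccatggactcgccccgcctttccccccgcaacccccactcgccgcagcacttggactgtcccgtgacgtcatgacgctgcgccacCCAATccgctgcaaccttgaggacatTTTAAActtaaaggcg
Hjurp, chr1:88277550-88277779, minus strand: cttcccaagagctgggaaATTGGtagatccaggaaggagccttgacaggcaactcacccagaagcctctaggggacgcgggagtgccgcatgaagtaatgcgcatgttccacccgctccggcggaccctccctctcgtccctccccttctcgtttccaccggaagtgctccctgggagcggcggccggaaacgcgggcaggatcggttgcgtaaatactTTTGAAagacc
Cenpa, chr5:30666686-30666915, plus strand: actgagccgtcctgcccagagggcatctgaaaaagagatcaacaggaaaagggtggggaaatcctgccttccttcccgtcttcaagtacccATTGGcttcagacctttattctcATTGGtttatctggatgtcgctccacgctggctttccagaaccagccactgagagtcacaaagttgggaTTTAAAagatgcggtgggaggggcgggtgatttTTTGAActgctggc
Nuf2, chr1:169531435-169531664, minus strand: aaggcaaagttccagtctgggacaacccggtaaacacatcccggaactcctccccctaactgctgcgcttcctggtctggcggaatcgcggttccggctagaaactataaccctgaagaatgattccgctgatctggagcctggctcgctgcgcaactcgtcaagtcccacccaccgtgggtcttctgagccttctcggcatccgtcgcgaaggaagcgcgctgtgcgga
Cenpb, chr2:131180038-131180267, minus strand: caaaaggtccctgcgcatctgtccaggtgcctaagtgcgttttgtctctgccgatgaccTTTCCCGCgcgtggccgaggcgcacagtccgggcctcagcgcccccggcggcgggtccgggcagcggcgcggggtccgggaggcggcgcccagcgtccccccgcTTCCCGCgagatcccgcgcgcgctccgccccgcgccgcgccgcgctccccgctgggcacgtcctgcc
Zwint, chr10:72654646-72654875, plus strand: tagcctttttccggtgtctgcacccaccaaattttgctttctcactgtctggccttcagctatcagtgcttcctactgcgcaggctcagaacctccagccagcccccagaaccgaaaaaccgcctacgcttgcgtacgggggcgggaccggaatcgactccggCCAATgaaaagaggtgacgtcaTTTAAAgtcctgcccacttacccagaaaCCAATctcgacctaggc
Ttk, Cenpf, Cenpe, Hjurp and Cenpa each carry at least 1 CHR and 1 CCAAT, on either strand, and the run of capitals that ends in TTTGAA in Cenpf is the bipartite element with its 4 spacer bases. Nuf2 has none of these motifs. Cenpb has E2F cores and neither CHR nor CCAAT, while Zwint has a CHR and CCAAT boxes. The printed genes do not stand for the rest, since CHR together with CCAAT was in 17 of the 42 genes with a window.

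The genes of centromeric chromatin and CENP-A loading differed widely among themselves, with log2 fold changes of 0.02 to 0.84 in Dyrk1a+/- embryos. Hjurp (ENSMUSG00000044783, GRCm38 chromosome 1, 88262471 to 88277633) encodes the chaperone that deposits CENP-A at centromeres after mitosis. It had 151, 264 and 255 CPM in Dyrk1a+/- libraries and 103, 125 and 146 CPM in wt libraries. Dyrk1a+/- replicates 2 and 3 stood far above the rest, while Dyrk1a+/- replicate 1 was just above the highest wt library. The mean was 223 ± 63.1 CPM in Dyrk1a+/- and 124 ± 21.7 CPM in wt (SD, n = 3 each). On the log2 scale Hjurp differed by 0.84 ± 0.208 (fold change ± SE, with 0.37 and 1.32 as bounds of the 95% interval), the largest of the 46 (edgeR, unadjusted p = 0.00293, adjusted p = 0.483). The difference in log2 CPM was 0.86 within the library pair and 0.79 within the 4 others, and the fold change ran from 0.71 to 1.06 with 1 library left out. DESeq2 gave it a log2 fold change of 0.85 and an adjusted p of 0.00821, so the call rests on that test and was not shared by edgeR.

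Cenpa, which encodes the histone variant that Hjurp loads, was at 36.1, 44.9 and 46.4 CPM in Dyrk1a+/- libraries and at 32.6, 36.3 and 34.9 CPM in wt libraries. Dyrk1a+/- replicate 1 fell inside the wt range, so the genotypes overlapped. Its log2 fold change was 0.30 (SE 0.107; edgeR, unadjusted p = 0.0224, adjusted p = 0.559). Mis18a and Oip5 encode subunits of the Mis18 complex, which prepares the centromere for loading. Mis18a was at 12.6, 15.8 and 14.3 CPM in Dyrk1a+/- and at 11.7, 14.3 and 13.1 CPM in wt libraries. Oip5 was at 3.67, 2.54 and 5.01 CPM in Dyrk1a+/- and at 3.11, 3.33 and 2.61 CPM in wt libraries. Both overlapped, and Oip5 shares 172 exonic bases with Nusap1 on the opposite strand, itself higher in Dyrk1a+/- (log2 fold change 0.41). Reads in the shared bases could be left out or counted for the wrong gene if strand was not used in counting. Cenpb encodes the protein that binds a short box in centromeric satellite DNA, and it is expressed outside mitosis as well. It was at 218, 238 and 225 CPM in Dyrk1a+/- and at 212, 213 and 247 CPM in wt libraries. Its log2 fold change was 0.02 (SE 0.0839; edgeR, unadjusted p = 0.817) with a 95% interval of -0.17 to 0.21, or 0.889-fold to 1.16-fold, and its sign turned when single libraries were left out (-0.019 to 0.096). Cenpb shares 20 exonic bases with Spef1 on its own strand (log2 fold change 0.15).

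**Figure D2:**
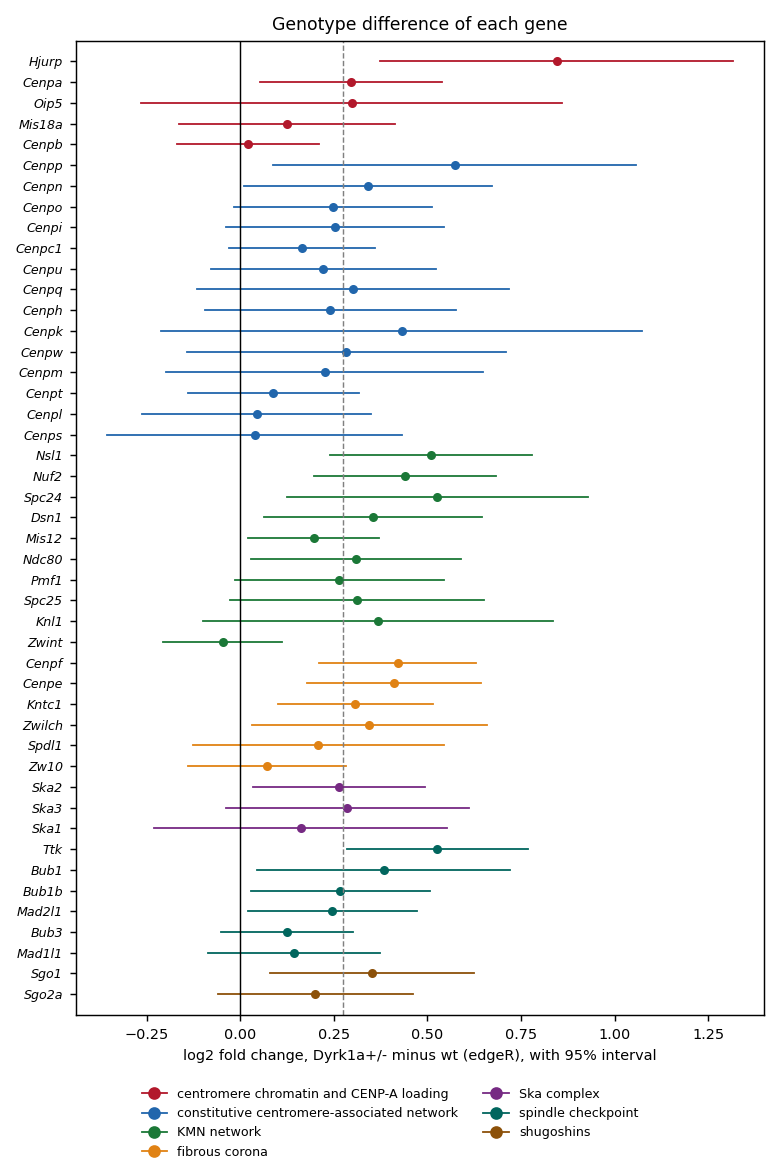
Points are edgeR log2 fold changes, Dyrk1a+/- minus wt, with 95% intervals, coloured by role; the dashed line is the median of the 46 genes. Every point but that of Zwint lies right of 0, Hjurp lies farthest right at 0.84, and no gene passed the adjusted threshold.

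The constitutive centromere-associated network, the inner layer of the kinetochore, had 14 of 14 genes higher in Dyrk1a+/-, with a median log2 fold change of 0.24. Of these 2 were at an unadjusted p under 0.05, Cenpp and Cenpn, and 3 separated the genotypes, those and Cenph. Among all genes 7.88% were at that level, 3.27% of them higher, and in 6.53% every Dyrk1a+/- library lay above every wt library. With 14 genes these are small counts. Cenpp encodes a subunit of the module that also holds CENP-O, CENP-Q and CENP-U. It was at 5.8, 4.55 and 7.58 CPM in Dyrk1a+/- and at 4.39, 4.36 and 3.22 CPM in wt libraries. Its log2 fold change was 0.57 (SE 0.214; edgeR, unadjusted p = 0.0259, adjusted p = 0.58), from low counts, and 315 of its exonic bases are shared with Ippk on the other strand (log2 fold change -0.033). Cenpn, whose product reads CENP-A nucleosomes together with CENP-L, was at 9.76, 9.7 and 8.8 CPM in Dyrk1a+/- and at 6.1, 8.37 and 7.92 CPM in wt libraries. Its log2 fold change was 0.34 (SE 0.146; edgeR, unadjusted p = 0.0455, adjusted p = 0.628). Its partner Cenpl was at 9.95, 10.7 and 13 CPM in Dyrk1a+/- and at 10.7, 11.8 and 9.99 CPM in wt libraries, with the genotypes mixed (log2 fold change 0.04, and -0.073 to 0.12 with single libraries left out).

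Cenpc1 encodes CENP-C, which links CENP-A nucleosomes to the outer kinetochore, and had the highest level per length in this layer. It was at 73.6, 66 and 75.5 CPM in Dyrk1a+/- and at 63.5, 69.2 and 59.3 CPM in wt libraries (log2 fold change 0.16, SE 0.0863; edgeR, unadjusted p = 0.0901). Cenpt encodes the second arm that recruits the NDC80 complex. It was at 34.9, 42.1 and 36.3 CPM in Dyrk1a+/- and at 34.4, 33.3 and 38.8 CPM in wt libraries, which overlapped (log2 fold change 0.09). Cenps and Cenpw encode histone-fold partners in the CENP-T group. Cenps was at 5.89, 5.07 and 6.72 CPM in Dyrk1a+/- and at 4.67, 5.99 and 6.55 CPM in wt libraries, and its log2 fold change of 0.04 (SE 0.174; edgeR, unadjusted p = 0.833) changed sign with single libraries left out (-0.094 to 0.15). Cenpw was at 7.15, 5.8 and 8.06 CPM in Dyrk1a+/- and at 6.41, 6.35 and 4.44 CPM in wt libraries. The remaining genes of the layer, Cenph, Cenpi, Cenpk, Cenpm, Cenpo, Cenpq and Cenpu, had log2 fold changes of 0.22 to 0.43, with Cenpk the highest and the least certain (SE 0.284).

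Cenph, Cenpi and Cenpk belong with CENP-M to a module that supports CENP-A loading. Cenph was at 8.21, 8.09 and 10.1 CPM in Dyrk1a+/- and at 6.41, 8.05 and 7.92 CPM in wt libraries, a separation by the width of 8.09 against 8.05 CPM. Cenpi was at 21.3, 19.9 and 26.9 CPM in Dyrk1a+/- and at 20.6, 18.6 and 17.9 CPM in wt libraries, with 1 Dyrk1a+/- library inside the wt range. Cenpk was at 6.57, 3.58 and 7.47 CPM in Dyrk1a+/- and at 4.97, 4.88 and 3.12 CPM in wt libraries, low in both libraries of the pair. Cenpm was at 4.59, 6.72 and 5.39 CPM in Dyrk1a+/- and at 4.42, 4.24 and 5.66 CPM in wt libraries, with overlap. In the module of CENP-P, Cenpo was at 23.3, 30 and 24.8 CPM in Dyrk1a+/- and at 21.4, 20.8 and 23.7 CPM in wt libraries. Its lowest Dyrk1a+/- library, replicate 1, fell just under the highest wt library, replicate 3. Cenpq was at 12.8, 8.85 and 13 CPM in Dyrk1a+/- and at 11.1, 8.88 and 7.99 CPM in wt libraries. Cenpu was at 11.1, 8.98 and 11 CPM in Dyrk1a+/- and at 9.7, 8.65 and 8.24 CPM in wt libraries. In both genes Dyrk1a+/- replicate 2 lay inside the wt range. Cenpo shares 1380 exonic bases with Adcy3, and Cenpu 1069 with Primpol, both on the opposite strand and at log2 fold changes of -0.097 and 0.005. Cenpo shares a further 252 with Ptrhd1 (-0.07), while Cenpt shares 8 with Tsnaxip1 and Cenpp 7 with Aspn, genes of few counts. Cenpk shares 233 with Ppwd1 (0.20) and Cenpq 95 with Mut (0.23), and these partners were higher too. Reads in the shared bases could be left out or counted for the wrong gene if strand was not used.

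The KMN network had 9 of 10 genes higher in Dyrk1a+/-, with a median log2 fold change of 0.33. Of the 10, 6 were higher at an unadjusted p under 0.05, against 3.27% of all genes. The MIS12 complex, its platform on the inner kinetochore, is built from the products of Mis12, Dsn1, Nsl1 and Pmf1. Nsl1 was at 16.7, 15.7 and 19.5 CPM in Dyrk1a+/- and at 11.1, 12.5 and 12.8 CPM in wt libraries, with a clear gap between the genotypes. Its log2 fold change was 0.51 (SE 0.12; edgeR, unadjusted p = 0.00218, adjusted p = 0.483), 0.30 within the library pair and 0.61 within the 4 others. Mis12 was at 30.5, 31.8 and 31.5 CPM in Dyrk1a+/- and at 27.9, 27.1 and 27 CPM in wt libraries. This was a small difference between 2 tight groups, with a log2 fold change of 0.20 (SE 0.0767; edgeR, unadjusted p = 0.0316, adjusted p = 0.591), and 231 of its exonic bases are shared with Derl2 on the other strand (log2 fold change 0.041). Dsn1 was at 15.9, 15.7 and 20.3 CPM in Dyrk1a+/- and at 13.2, 12.8 and 14.5 CPM in wt libraries. Pmf1 was at 14.3, 15.2 and 17.4 CPM in Dyrk1a+/- and at 12.2, 12.2 and 14.6 CPM in wt libraries, where the genotypes just overlapped.

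The NDC80 complex binds the microtubule and consists of NDC80 and NUF2, which hold it, and SPC24 and SPC25, which anchor it. Nuf2 was at 26.2, 24.6 and 29 CPM in Dyrk1a+/- and at 19.4, 21.5 and 17.9 CPM in wt libraries. Its log2 fold change was 0.44 (SE 0.107; edgeR, unadjusted p = 0.00272, adjusted p = 0.483), close to the same within the library pair (0.46) and within the 4 others (0.43). Spc24 was at 8.94, 10.5 and 12.2 CPM in Dyrk1a+/- and at 7.32, 5.83 and 8.78 CPM in wt libraries. The nearest libraries of the 2 genotypes were 8.94 and 8.78 CPM, so Spc24 separated them by little (log2 fold change 0.53, SE 0.177; edgeR, unadjusted p = 0.0161). Ndc80 was at 12.8, 12.4 and 15.5 CPM in Dyrk1a+/- and at 11.4, 10.3 and 11 CPM in wt libraries. Spc25 was at 21.5, 19.9 and 26.1 CPM in Dyrk1a+/- and at 16.2, 21.8 and 16.4 CPM in wt libraries, which overlapped. All 4 subunits were thus higher on average, by log2 fold changes of 0.31 to 0.53.

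KNL1, the remaining arm of the network, carries the repeats to which BUB proteins dock, and ZWINT is its partner. Knl1 was at 72.7, 52.8 and 86.7 CPM in Dyrk1a+/- and at 53.1, 69.2 and 42.2 CPM in wt libraries. The SD was 17 CPM in Dyrk1a+/- and 13.6 CPM in wt, and the lowest value of each genotype fell in the library pair (log2 fold change 0.37, SE 0.206; edgeR, unadjusted p = 0.11). Zwint was at 213, 217 and 203 CPM in Dyrk1a+/- and at 228, 216 and 210 CPM in wt libraries. It was the only one of the 46 below 0, with a log2 fold change of -0.05 and a 95% interval of -0.21 to 0.11 (SE 0.0705; edgeR, unadjusted p = 0.516). Zwint is known to be expressed in neurons as well as in dividing cells.

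**Figure D3:**
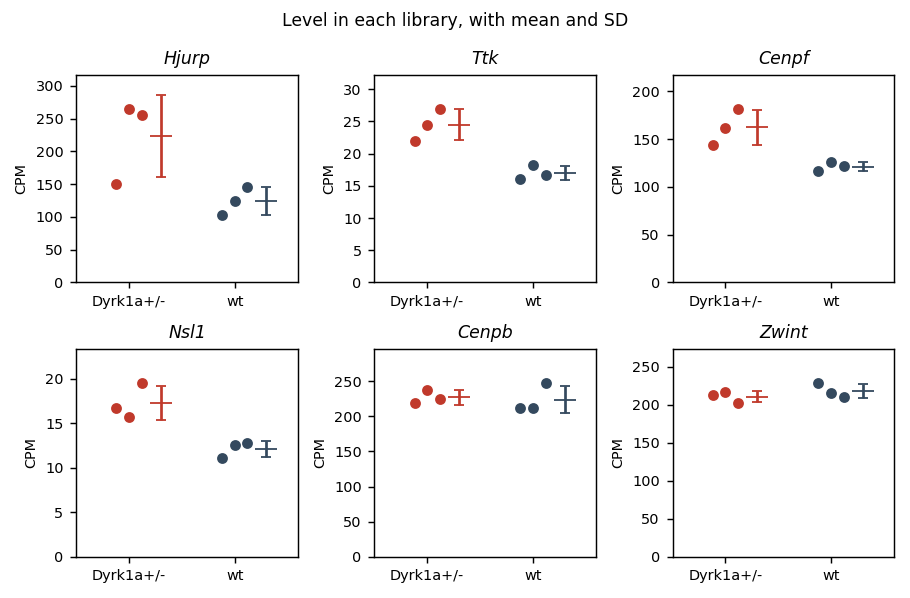
CPM in each library for 6 genes, Dyrk1a+/- on the left and wt on the right of each panel, with mean and SD of 3 libraries beside the points and axes from 0. Ttk, Cenpf and Nsl1 separate the genotypes with a gap, Hjurp does so with 1 Dyrk1a+/- library (151 CPM) near the highest wt library (146 CPM), and Cenpb and Zwint overlap.

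The fibrous corona is the outermost layer, made by motors and scaffolds that expand over unattached kinetochores, and all 6 of its genes were higher in Dyrk1a+/-, with a median log2 fold change of 0.33. Cenpf, a large coiled-coil protein of G2 and mitosis, was at 144, 161 and 181 CPM in Dyrk1a+/- and at 116, 126 and 121 CPM in wt libraries. The lowest Dyrk1a+/- library stood clear of the highest wt library (log2 fold change 0.42, SE 0.0924; edgeR, unadjusted p = 0.00144, adjusted p = 0.483; DESeq2 adjusted p = 0.0514). Cenpe, a kinesin that carries chromosomes to the spindle equator, was at 65.5, 77.6 and 85.5 CPM in Dyrk1a+/- and at 54.5, 60.8 and 56.8 CPM in wt libraries (log2 fold change 0.41, SE 0.103; edgeR, unadjusted p = 0.00325). The RZZ complex, which brings dynein to kinetochores, is encoded by Kntc1, Zwilch and Zw10. Kntc1 was at 54.3, 57.8 and 67.4 CPM in Dyrk1a+/- and at 47.9, 49.5 and 47.7 CPM in wt libraries, without overlap (log2 fold change 0.31, SE 0.0913; edgeR, unadjusted p = 0.00856). Zwilch was at 16.9, 11.9 and 15.1 CPM in Dyrk1a+/- and at 11.6, 11.5 and 11.4 CPM in wt libraries, with 1 Dyrk1a+/- library close to the wt values (log2 fold change 0.34), and it shares 254 exonic bases with Lctl on the opposite strand, which had 0 counts in every library. Zw10, which also acts in membrane traffic of non-dividing cells, was at 27.6, 31.5 and 33 CPM in Dyrk1a+/- and at 29.3, 27.9 and 30.5 CPM in wt libraries, which overlapped (log2 fold change 0.07, SE 0.0934; edgeR, unadjusted p = 0.465). The 95% intervals of the 3 log2 fold changes overlapped, at 0.10 to 0.51 for Kntc1, 0.03 to 0.66 for Zwilch and -0.14 to 0.28 for Zw10, and their differences were not tested. Spdl1, the dynein adaptor of the corona, was at 9.9, 11.3 and 11.5 CPM in Dyrk1a+/- and at 7.81, 9.64 and 11 CPM in wt libraries, also with overlap.

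The Ska complex keeps kinetochores on the ends of shortening microtubules, and its 3 genes were higher in Dyrk1a+/- by log2 fold changes of 0.16 to 0.29. Ska2 was at 55.7, 53 and 67.2 CPM in Dyrk1a+/- and at 50.1, 50.7 and 45.7 CPM in wt libraries, the only one of the 3 that did not overlap (log2 fold change 0.26, SE 0.101; edgeR, unadjusted p = 0.0294). Ska3 was at 8.21, 9.46 and 10.3 CPM in Dyrk1a+/- and at 6.77, 8.65 and 7.59 CPM in wt libraries (log2 fold change 0.29, SE 0.143; edgeR, unadjusted p = 0.0776). Ska1 was at 7.05, 5.19 and 8 CPM in Dyrk1a+/- and at 5.64, 6.43 and 5.98 CPM in wt libraries, with Dyrk1a+/- replicate 2 below every wt library (log2 fold change 0.16, SE 0.173; edgeR, unadjusted p = 0.376). Ska2 shares 329 exonic bases with Gm11491 on the opposite strand, which had 21 counts over all libraries. Ska3 shares 78 exonic bases with Sap18 on the opposite strand (log2 fold change 0.05).

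The 6 spindle checkpoint genes were all higher in Dyrk1a+/-, with a median log2 fold change of 0.26. Of the 6, 4 were at an unadjusted p under 0.05, against 3.27% of all genes higher at that level. Ttk, which encodes the kinase MPS1 that starts the checkpoint signal at the kinetochore, had the lowest p of the 46. It was at 22, 24.5 and 26.9 CPM in Dyrk1a+/- and at 16, 18.2 and 16.7 CPM in wt libraries, with a wide gap between the groups. The mean was 24.5 ± 2.43 CPM in Dyrk1a+/- and 17 ± 1.11 CPM in wt (SD, n = 3 each). On the log2 scale Ttk differed by 0.53 ± 0.107 (fold change ± SE, with 0.28 and 0.77 as bounds of the 95% interval; edgeR, unadjusted p = 0.000863, adjusted p = 0.483; DESeq2 adjusted p = 0.0505). It was 0.55 within the library pair and 0.51 within the 4 others, and 0.45 to 0.60 with 1 library left out. An exact 2-sided permutation test of its CPM gave p = 0.1, and 3 libraries in each genotype cannot give a smaller one.

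Bub1, the kinase that docks on KNL1 and marks the inner centromere, was at 38.4, 32.9 and 46.1 CPM in Dyrk1a+/- and at 29.7, 34.9 and 25.3 CPM in wt libraries (log2 fold change 0.38, SE 0.149; edgeR, unadjusted p = 0.0306). Its lowest Dyrk1a+/- library fell below its highest wt library. Bub1b encodes BUBR1, a part of the mitotic checkpoint complex that inhibits the anaphase-promoting complex. It was at 58.5, 67.1 and 72 CPM in Dyrk1a+/- and at 48.9, 54.8 and 60.5 CPM in wt libraries, with a small overlap (log2 fold change 0.27, SE 0.105). Mad2l1 encodes MAD2, which holds CDC20 in that complex, and Mad1l1 its receptor at the kinetochore. Mad2l1 was at 29.1, 28 and 33.5 CPM in Dyrk1a+/- and at 26.9, 25.7 and 23.7 CPM in wt libraries, without overlap (log2 fold change 0.25, SE 0.0996). Mad1l1 was at 43.2, 52.8 and 45.9 CPM in Dyrk1a+/- and at 43, 39.1 and 46.5 CPM in wt libraries, with overlap (log2 fold change 0.14, SE 0.101; edgeR, unadjusted p = 0.192), and shares 37 exonic bases with Gm16121 on the opposite strand (0.49). Bub3, the shared adaptor of BUB1 and BUBR1, was at 108, 116 and 107 CPM in Dyrk1a+/- and at 95.8, 98.8 and 109 CPM in wt libraries, again overlapping (log2 fold change 0.13, SE 0.0776; edgeR, unadjusted p = 0.141).

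The shugoshins protect centromeric cohesin until anaphase. Sgo1 was at 13.8, 14 and 17.1 CPM in Dyrk1a+/- and at 11.5, 12.5 and 11.3 CPM in wt libraries, without overlap (log2 fold change 0.35, SE 0.12; edgeR, unadjusted p = 0.0174, adjusted p = 0.541). Sgo2a was at 27.4, 26.4 and 31.5 CPM in Dyrk1a+/- and at 22, 28 and 24.3 CPM in wt libraries, with overlap (log2 fold change 0.20, SE 0.115; edgeR, unadjusted p = 0.117), and shares 2455 exonic bases with Kctd18 on the other strand (log2 fold change -0.12).

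Levels were compared between genes as CPM per kb of exon. In wt forebrain Zwint, at 49.2 ± 2.08, and Cenpb, at 45.8 ± 4.06 CPM per kb (SD, n = 3), stood well above the rest, and did not differ from each other beyond their spread on this length, although with the longest transcript as length Zwint was at 81.5 against 45.8 CPM per kb for Cenpb. In Dyrk1a+/- forebrain they were at 47.6 ± 1.63 and 46.5 ± 2.08 CPM per kb. Next in wt were Ska2 at 14.9 ± 0.835, Hjurp at 14.9 ± 2.6, Bub3 at 14.5 ± 1.01 and Bub1b at 12.8 ± 1.36 CPM per kb, which overlapped in spread. Mad1l1 at 11.7 ± 1.02 and Cenpc1 at 11.4 ± 0.882 CPM per kb followed and overlapped Bub1b in spread. With the longest transcript the order changed, with Hjurp at 25.5, Bub3 at 25.2 and Cenpc1 at 20 CPM per kb. Mad1l1 was then at 16.2, Ska2 at 16.1 and Bub1b at 14.9 CPM per kb. In Dyrk1a+/- forebrain the mean of Hjurp, at 26.8 ± 7.58 CPM per kb, was above that of Ska2, at 17.9 ± 2.31, with overlap in spread. The lowest in wt were Cenpk at 0.826 ± 0.2, Cenpw at 1.36 ± 0.265 and Cenpp at 1.56 ± 0.26 CPM per kb (2.08, 1.38 and 1.94 in that order with the longest transcript). Subunits of a complex were not at equal levels per length: in wt Spc25 was at 5.69 ± 0.992, Nuf2 at 3.09 ± 0.287, Spc24 at 2.84 ± 0.572 and Ndc80 at 1.68 ± 0.0838 CPM per kb. Within the MIS12 complex Mis12 was at 9.1 ± 0.175, Dsn1 at 4.03 ± 0.263, Pmf1 at 3.2 ± 0.334 and Nsl1 at 2.29 ± 0.168 CPM per kb in wt. With the longest transcript Pmf1, at 5.55, was above Dsn1, at 5.13 CPM per kb, and the order of the NDC80 subunits was the same. Exon lengths join all annotated transcripts of a gene, so genes with long minor transcripts, such as Cenpk, read low. With the longest transcript in place of the joined exons, 9 of the 10 most abundant genes were shared.

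**Figure D4:**
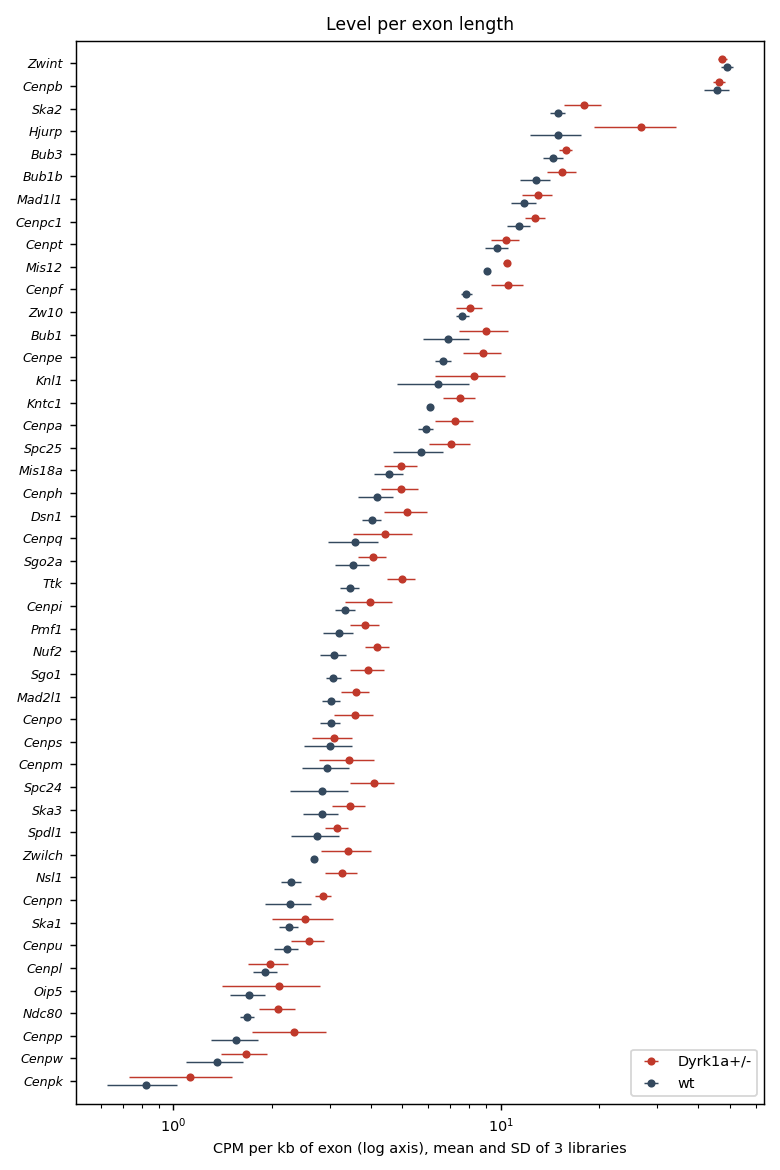
Mean CPM per kb of exon with SD over 3 libraries, on a log axis, for Dyrk1a+/- (red, upper point of each gene) and wt (blue, lower point), ordered by the wt level. Zwint and Cenpb, at 49.2 and 45.8 CPM per kb in wt, lie apart from the other genes, and the widest gap between the genotypes is at Hjurp.

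A textbook grouping, based on cell cycle profiling of human cells, places 17 of the 46 genes among those that peak in G2 and mitosis. Among them are Cenpa, Cenpe, Cenpf, Hjurp, Ttk and the Bub kinases. No profiling data were read here to set this list, and it was set with earlier results of these data known. The split is therefore a description and not a test. All 17 were higher in Dyrk1a+/-, with a median log2 fold change of 0.31 and 11 at an unadjusted p under 0.05. Of the other 29 genes, 28 were higher, with a median of 0.24 and 9 at an unadjusted p under 0.05. Among all genes 51.2% were higher, and 3.27% were higher at that level. The genes nearest to 0, Zwint, Cenpb, Cenps, Cenpl, Zw10 and Cenpt, were all among the 29.

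Partners of the kinetochore outside the 46 genes were higher to different degrees. In the chromosomal passenger complex, the Aurora B module that corrects wrong attachments, 4 of 4 genes were higher and at an unadjusted p under 0.05, with a median log2 fold change of 0.33. Incenp, its scaffold, averaged 49 ± 5.39 CPM in Dyrk1a+/- and 39.5 ± 2.85 CPM in wt, and Cdca8, borealin, 25.6 ± 4.04 CPM in Dyrk1a+/- and 19.6 ± 1.52 CPM in wt (SD, n = 3 each). Of 18 other kinetochore and centromere genes 15 were higher, with a median of 0.12 and 4 at an unadjusted p under 0.05, all higher. Spag5, astrin, which stabilises attached kinetochores, had a log2 fold change of 0.37 (SE 0.072), and Kif2c, the depolymerase MCAK, of 0.36 (SE 0.112). Cohesin, its loaders and separase had 15 of 15 genes higher with a median of 0.14, and 2 at an unadjusted p under 0.05, the S phase acetyltransferase gene Esco2 (0.55) and Cdca5, sororin (0.44). Of 16 genes of the anaphase-promoting complex and its activators, the target of the checkpoint, 15 were higher, with a median of 0.05. Cdc20, the activator that the checkpoint holds back, was at 44.1 ± 5.75 CPM in Dyrk1a+/- and 34.9 ± 6.08 CPM in wt (SD, n = 3 each; log2 fold change 0.34, edgeR unadjusted p = 0.0402). It was the only one of the 16 at an unadjusted p under 0.05, and the lower member was the subunit gene Anapc2 (-0.15). Among all genes 7.88% were at that level in either direction and 3.27% were higher at it, so 1 of 16 is near the share of all genes. None of these partners passed edgeR's test over all genes.

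Most markers of dividing cells were higher in Dyrk1a+/- too. Of 22 genes of S phase and replication 22 were higher in Dyrk1a+/-, with a median log2 fold change of 0.29 and 18 at an unadjusted p under 0.05, those of lowest p being Rrm2 (0.40) and Ung (0.39). Among all genes 51.2% were higher, and at that level of p 3.27% were higher and 4.61% lower. Of 11 apical progenitor markers 9 were higher, with a median of 0.24, those of lowest p being Hes1 (0.48) and Pax6 (0.29). The 2 lower ones, named after their values were seen, were Slc1a3 (-0.20), with every Dyrk1a+/- library below every wt library, and Fabp7 (-0.071). Their summed level was 1464 to 1662 CPM in Dyrk1a+/- and 1385 to 1563 CPM in wt libraries. Of 7 intermediate progenitor markers 7 were higher, with a median of 0.27, those of lowest p being Btg2 (0.36) and Neurog2 (0.36), and a summed level of 323 to 389 CPM in Dyrk1a+/- and 268 to 297 CPM in wt libraries. Of 10 neuron markers 8 were lower, with a median of -0.13, among them Nefl (-0.28) and Syt1 (-0.26), and a summed level of 5983 to 6107 CPM in Dyrk1a+/- and 6305 to 6752 CPM in wt libraries. The 46 genes' median of 0.28 thus lay beside those of S phase and progenitor genes, and the part of these other lists in the result was not tested. No member of these lists passed edgeR's test over all genes.

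Markers of cells from outside the neural lineage were mostly lower. Of 10 endothelial and meningeal markers 8 were lower (median log2 fold change -0.071), those of lowest p being Col1a2 (-0.32) and Col3a1 (-0.24), and they summed to 600 to 616 CPM in Dyrk1a+/- and 635 to 726 CPM in wt libraries. Of 11 erythroid and immune markers 9 were lower, with a median of -0.34, summing to 591 to 765 CPM in Dyrk1a+/- and 756 to 936 CPM in wt libraries. In this list Hbb-bt was lower (-0.55) and the embryonic globin Hbb-y was higher (2.62), at 42.3 ± 34.9 CPM in Dyrk1a+/- and 6.85 ± 2.54 CPM in wt (SD, n = 3 each). Dyrk1a+/- replicate 3 held most of it (21.5, 22.8 and 82.5 CPM in Dyrk1a+/- libraries), and without that library the log2 fold change was 1.70. The part of these lists in the result was not tested.

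**Figure D5:**
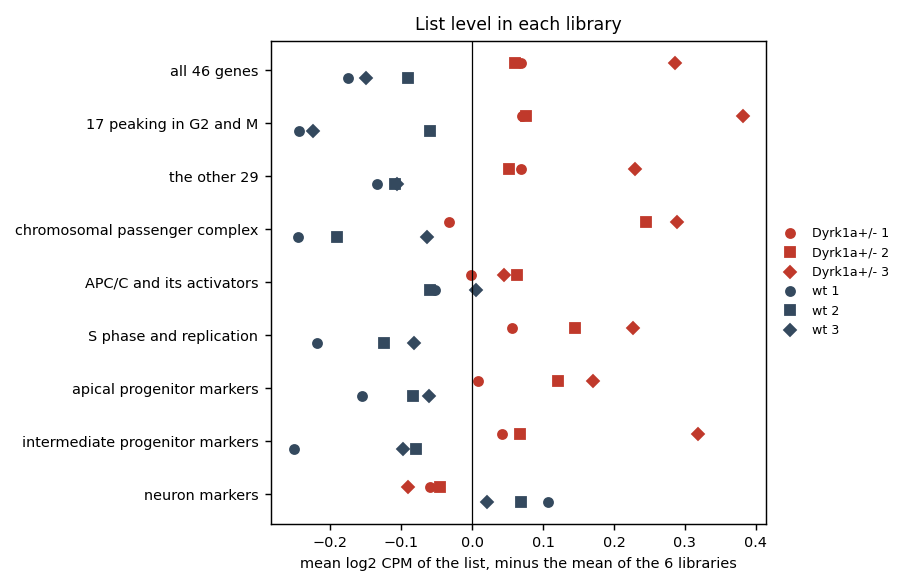
Each symbol is a library's mean log2 CPM over a list, minus the mean of the 6 libraries, with Dyrk1a+/- in red above wt in blue. For the 46 genes the Dyrk1a+/- libraries lie at 0.060 to 0.29 and the wt libraries at -0.17 to -0.091, the S phase and progenitor lists are arranged alike, and the neuron list is reversed.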

How the data were processed

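Forebrain RNA of 3 Dyrk1a+/- and 3 wt embryos was compared, with genotype and replicate read from each title. The authors deposited raw counts for Ensembl genes, all whole numbers with totals that differ by library. Per the submitters' processing notes the tools were bcl2fastq 2.17.1.14, HISAT2, SAMtools 1.9 and HTSeq 0.9.1, with GRCm38/mm10. Annotation release and strand setting were not given in the labels or headers, so genes with shared exons are named beside the results. Per the labels' protocols a stranded total-RNA kit with ribosomal depletion was used, although the labels also name polyadenylated RNA. Symbols, positions and exon lengths came from GENCODE M21 (32888 of 33084 identifiers) and promoters from RefSeq.

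The tests used edgeR 4.0.16 and, as an alternative, DESeq2 1.42.0 (R 4.3.3). Genes passed filterByExpr with its defaults, libraries were scaled by TMM, and genotype was the only term of a quasi-likelihood fit over all 19403 genes, with Benjamini-Hochberg adjustment and a threshold of 0.05. Log2 fold changes are Dyrk1a+/- minus wt, and standard errors come from the F statistic. Differences in log2 CPM used a prior count of 2. No library was a copy of another (chi-square over degrees of freedom 4.86 to 32.4 between libraries). Litters are not labelled. Reads carry no molecular identifiers.

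The genes, lists and alternatives were chosen with earlier results of these data known. Fold change, SE and p are given by a rule: for Dyrk1a, and in each role group for the 2 genes of lowest and the 1 of highest p, of highest level per length, called by DESeq2 or against the common direction. Fold changes are given for the 2 of lowest p in each other list. Other members, and the overlapping genes, are given with values chosen after they were seen. The edgeR step was tested on simulated counts.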

Additional observations from a re-analysis of the deposited data

How the results depend on the processing

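The 46 genes kept 43 to 45 members higher in Dyrk1a+/- under every alternative run, and their median log2 fold change ran from 0.19 to 0.32. None passed edgeR's adjusted test in any edgeR fit, and DESeq2 called 1, Hjurp. The number at an unadjusted p under 0.05, 20 in the analysis as reported, was 31 with a term for the library pair (7.43% of all genes higher at that level, against 3.27% as reported), 23 in the 4 libraries outside the pair (5.84%) and 12 with the replicate block (2.14%). With 1 library left out it ran from 7 to 24, with 7 without Dyrk1a+/- replicate 3 and 11 without wt replicate 1, on 1.58% of all genes in both. The number that separated the genotypes, which can only stay or grow when a library is left out and so shows nothing of stability, was 18 to 28 (8.99% to 14.9% of all genes). The cause was not tested. Replicate numbers were not taken as pairs, since the deviations of same-numbered libraries correlated at 0.20, -0.32 and -0.16. With 1 library left out the log2 fold changes of Cenpb ran from -0.019 to 0.096, of Cenps from -0.094 to 0.15 and of Cenpl from -0.073 to 0.12, and in the alternatives run no sign changed among the other members. In the 150 bases nearest the start and downstream 38.3% of these genes' windows held a CHR, against 12.8% of all windows. In the full windows these shares were 48.9% and 27.6%. The median level in wt was 3.49 CPM per kb, and 5.15 with the longest transcript, which raised Zwint, Hjurp, Bub3 and Cenpc1, among others, by over 1.5 times. At low counts (Oip5, Cenpk, Cenpp, Cenpw, Cenps, Cenpm and Ska1, with means under 8 CPM in both genotypes) depth limits what can be seen.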

Other observations

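Values of genes near Hjurp are given here for description. Of the 10 other tested genes that start within 0.5 Mb of it on chromosome 1, none was at an unadjusted p under 0.05 (edgeR). Among all genes 7.88% were at that level, so for 10 genes this count is near the share of all genes. Some of the 10, such as Trpm8, had few counts. A local cause was not tested. Usp40, Dgkd and Arl4c, the abundant ones, were at 87.8 ± 2.23, 188 ± 9.23 and 117 ± 6.71 CPM in Dyrk1a+/- and at 84.9 ± 5.49, 192 ± 5.42 and 121 ± 1.29 CPM in wt (SD, n = 3 each). Trpm8, whose annotated span begins at the Hjurp end, was at 0.536 ± 0.0937 CPM in Dyrk1a+/- and 0.681 ± 0.198 CPM in wt. The within-genotype SD of Hjurp in Dyrk1a+/- (63.1 CPM against a mean of 223) was wider than that of Cenpf (18.5 CPM against 162) and Cenpb (10.2 CPM against 227).

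Some members differed between the library pair and the other libraries of their own genotype. Cenpk was at 3.58 CPM in Dyrk1a+/- replicate 2, against 6.57 and 7.47 CPM in the other Dyrk1a+/- libraries, and at 3.12 CPM in wt replicate 3, against 4.97 and 4.88 CPM in the other wt libraries. Knl1 had the same order, at 52.8 CPM in Dyrk1a+/- replicate 2 against 72.7 and 86.7, and at 42.2 CPM in wt replicate 3 against 53.1 and 69.2. Hjurp and Mad1l1 had the opposite order, with their highest value of each genotype in these libraries.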
